A study of Mus musculus with 4 samples.

Results

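This comparison sets 2 libraries of mouse bone marrow-derived macrophages against each other after bacterial lipopolysaccharide (LPS): the one labelled Trpv4-null and the wild type. Its members are all cells that the deposited annotation assigns to either library, 6565 labelled Trpv4-null and 8288 wild type, together 14853 of the 27366 cells of the series. The macrophages were primary cells grown out of marrow from mice aged 8 to 12 weeks, C57BL/6J wild type or TRPV4-null. All libraries share differentiation in recombinant M-CSF at 50 ng/mL, and the pair compared here had LPS at 100 ng/mL for 24 h before harvest. Polyadenylated RNA was captured in droplets on the 10x Genomics Chromium platform. The other pair of libraries, 7028 wild-type cells and 5485 labelled Trpv4-null, had no LPS and is given beside it. According to the design text, 3 mice of each genotype gave 12 samples, but the annotation names a library for each cell and no mouse. Each side is therefore 1 library with an unknown mixture of mice, no difference has a replicate check, and no test was made.

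TRPV4 is a plasma membrane channel that lets calcium into the cell when the membrane is stretched, swollen or warmed, and the series title places it in relation to NF-kB and lung inflammation. LPS is sensed by TLR4 with its co-receptor CD14. TLR4 then signals through MYD88 to NF-kB, which drives chemokines and cytokines, and through TRIF to the interferon regulatory factors, which drive type I interferon and the antiviral genes behind it. Activated macrophages also turn to glycolysis, partly through the transcription factor HIF-1, and release proteases that remodel the surrounding matrix.

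Levels are given in CPM, counts of unique molecular identifiers (UMIs, which tag each captured mRNA) per 1000000 of the library. Where 4 levels follow each other they stand in the order wild type untreated, labelled Trpv4-null untreated, wild type after LPS and labelled Trpv4-null after LPS. A ratio divides the library labelled Trpv4-null by the wild type, so a log2 ratio above 0 is a higher level in the former. Log2 ratios were taken on CPM plus 1, which understates the ratio of weakly expressed genes. A ratio followed by a range has an exact 95% interval of the plain CPM ratio, which covers the error of counting UMIs and leaves out how mice or cultures vary. A gene was compared where its higher library had at least 20 CPM and 30 UMIs. It is called higher or lower where the libraries, on CPM plus 1, stood at least as 5 to 4, a log2 ratio of 0.32 or more in size.

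The LPS pair was close in depth. The library labelled Trpv4-null held 109030958 UMIs and the wild type 144090985, with a median of 16041 and 16673.5 UMIs per cell, 3560 and 3718 genes per cell and 3.19% and 3.05% mitochondrial UMIs. The untreated pair was further apart, at medians of 7893 and 5660.5 UMIs and 2764 and 2260 genes per cell in the same order. Both LPS libraries carried all 14 macrophage markers at 20 CPM or more, in each of the 8 clusters compared. Of the marker genes of other cell types, 3 of 10 monocyte, 1 of 12 dendritic cell, 1 of 7 osteoclast and 1 of 2 eosinophil markers in the table reached 20 CPM in each LPS library. The summed level of 7 neutrophil markers in the table was 48.5 CPM for wild type against 26.1 CPM for the other library, and their part in the results was not tested. The LPS pair shared 14 cell barcodes. No doublet caller was run, and how doublets were treated before deposit is not stated in the labels. The authors' names for the clusters were used as they stand.

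Trpv4 itself went against the genotype label. It stood at 5.83, 8.60, 2.07 and 9.62 CPM, so that after LPS the library labelled Trpv4-null had 4.65 times the wild-type level (4.09 to 5.31), from 1049 against 298 UMIs. The higher level was found in all 8 clusters compared. In the cluster named Proliferating, Trpv4 stood at 2.13 CPM (95% interval 1.39 to 3.13) for wild type against 11.6 CPM (9.81 to 13.7). The cluster named Cd74+ had the fewest UMIs, 6 and 36, and levels of 1.43 and 7.49 CPM. Trpv4 spans 114622152 to 114658421 of chromosome 5 (GRCm38), on the minus strand. The labels do not say which part of Trpv4 was deleted, and reads from outside that part would check nothing. The name "library labelled Trpv4-null" is therefore kept throughout, and each direction below rests on that label.

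Most genes lay close to each other in the libraries. Of 5236 genes compared, 94.4% were not called, and the median log2 ratio was -0.04. In the library labelled Trpv4-null, 159 genes (3.04%) were called higher and 134 (2.56%) lower. Each count of called list members below is to be read beside these shares over all genes. Scaling moved the split between higher and lower. It was 267 higher and 59 lower with median-of-ratios size factors, which add 0.08 to the log2 ratios, and 246 and 65 with TMM factors. With the library total taken without Fth1, Ftl1 and Saa3 the order turned, to 151 higher and 178 lower. At least 2-fold apart were 7 genes higher (0.134%) and 3 lower (0.0573%). For 24 of the 159 and 36 of the 134, the lower library had under 20 CPM, so these entered through their higher library alone. The plot of levels in the 4 libraries shows the genes that the account turns on.

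**Figure D1:**
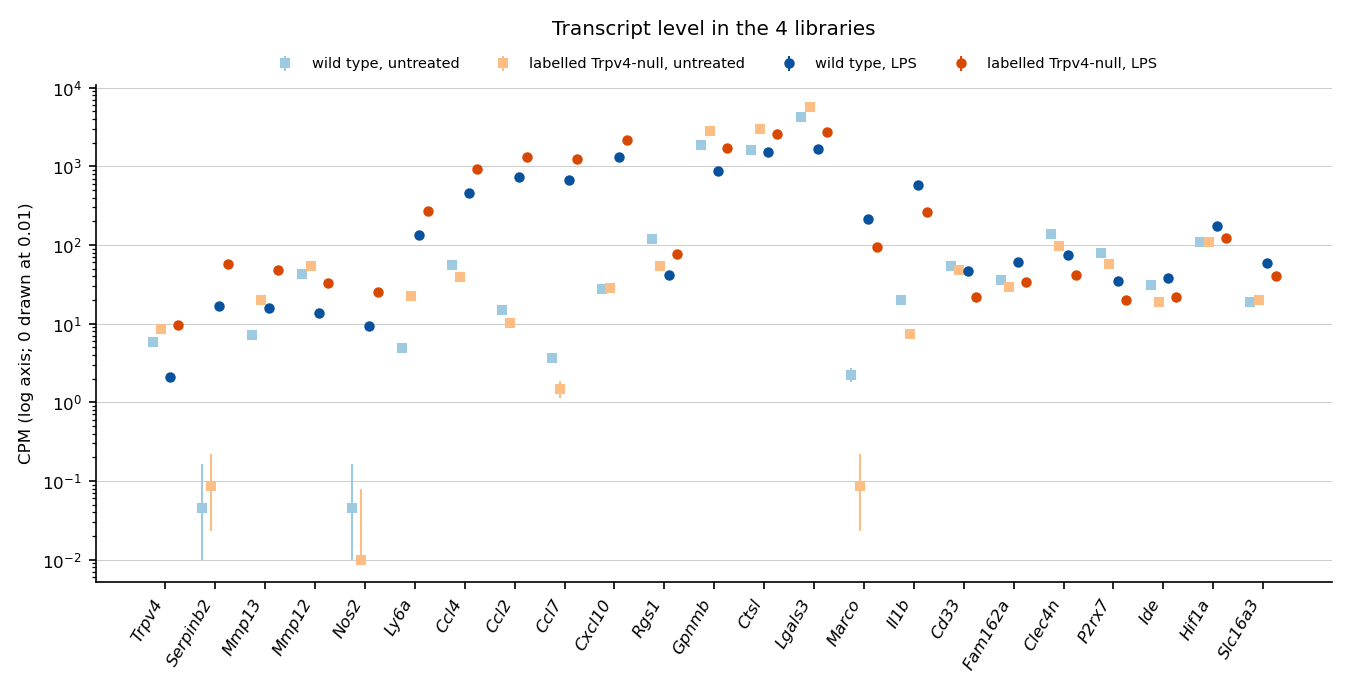
Level of 23 genes in the 4 libraries, in CPM on a log axis. Squares are untreated and circles LPS libraries, bars are exact 95% Poisson intervals (often smaller than the symbol), and a level of 0 is drawn at 0.01. Trpv4 after LPS is 9.62 CPM under the Trpv4-null label and 2.07 CPM in wild type. Serpinb2 and Nos2 are near 0 untreated in both.

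Genes of LPS sensing lay close together in the libraries. Of 23 NF-kB pathway genes compared, none was called higher or lower, and their median log2 ratio was 0.01 (-0.002 with the library total taken without Fth1, Ftl1 and Saa3) against -0.04 over all genes. The subunit gene Nfkb1 stood at 122 and 108 CPM after LPS and Rela at 64.1 and 67.6 CPM. The inhibitor Nfkbia, itself induced by NF-kB, stood at 405 and 437 CPM, and the deubiquitinase Tnfaip3, which ends the signal, at 49.2 and 53.9 CPM. Of 18 genes compared in the TLR4 list, 5 were receptor, 8 adaptor and 5 other TLR genes. Cd180, a TLR4-like receptor that dampens the LPS response, was the only one called, with 91.5 and 134 CPM (ratio 1.46, 1.43 to 1.496). Tlr4 (-0.06), Cd14 (-0.21) and Myd88 (0.16) were not called. The median of this list was -0.04, and it turned to 0.04 with median-of-ratios factors. None of 17 interferon signalling factors was called higher or lower, with Irf7 at 0.19 and Irf1 at 0.27 among them.

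Calcium genes besides Trpv4 did not stand apart either. Of 29 calcium entry and signalling genes, 1 was called higher, the calcium-binding S100a4 (422 and 529 CPM, log2 ratio 0.33). The stretch-activated channel Piezo1 stood at 39.8 and 43.0 CPM and Trpv2, another channel of the TRPV family, at 72.6 and 76.2 CPM. The channel kinase Trpm7 had 29.8 and 26.1 CPM. The list had a median of -0.03 (0.04 with median-of-ratios factors). Of 26 actin and mechanotransduction genes, none was called higher or lower.

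Chemokines that draw monocytes, by contrast, were higher as a group in the library labelled Trpv4-null. Of 9 CC chemokines compared, all were above 0 and 8 called higher, with a median log2 ratio of 0.84, and 3 more of the list were below the level filter. Ccl7, a ligand of CCR2, stood at 3.66, 1.47, 676 and 1223 CPM. Untreated it was almost absent, and after LPS the library labelled Trpv4-null had 1.81 times the wild-type level (1.80 to 1.83). Ccl12, another CCR2 ligand, stood at 0.960, 1.28, 387 and 640 CPM. Ccl3, a ligand of CCR1, stood at 96.0, 71.1, 223 and 402 CPM, so that the order of the genotype labels was opposite without LPS. Ccl6 (220 and 339 CPM after LPS) and Ccl9 (1666 and 2303 CPM) were already high untreated and nearly level there (log2 ratios 0.06 and 0.15). Ccl5, by far the most abundant CC chemokine after LPS, was the one not called (0.07).

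CXC chemokines were less uniform. Of 5 compared, 2 were called higher. Cxcl10, which draws T cells through CXCR3, stood at 27.2, 28.2, 1310 and 2172 CPM (ratio 1.66, 1.65 to 1.67). Cxcl2, a CXCR2 ligand, stood at 65.8, 33.0, 194 and 289 CPM, so it was lower untreated and higher after LPS under the Trpv4-null label. Cxcl3 (0.04), Cxcl16 (0.13) and Pf4 (0.24) were not called. Among 9 chemoattractant receptors, Ccrl2, which presents chemerin, had 29.2 and 44.1 CPM and the C5a receptor C5ar1 232 and 302 CPM, and the other 7 were not called, Ccr1 (-0.10) among them.

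Cytokines went both ways. Of 9 compared, 3 were called higher and 2 lower (median 0.11). Il1a, an alarmin of the interleukin-1 family, stood at 0.0915, 0.0213, 54.7 and 34.9 CPM (ratio 0.637, 0.613 to 0.663), the same side as Il1b (log2 ratio -1.12). The interleukin-18 trap Il18bp was higher (98.0 and 133 CPM), as were Tnf (0.47) and the interleukin-1 antagonist Il1rn (0.43). Il1a and Il1b were called lower in each of the 8 clusters, and the log2 ratio of Il1rn lay between 0.22 and 0.52 over them. Interleukin-1 processing genes were mixed, with the protease Casp1 at 138 and 179 CPM and the ATP-gated channel P2rx7 at 35.1 and 19.8 CPM, while Nlrp3 (-0.05) and Pycard (below 0.01 in size) were level.

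Antiviral genes leaned to the library labelled Trpv4-null. Of 41 compared, 36 were above 0, with a median of 0.12 and cluster medians of 0.09 to 0.18. Among them 8 were called higher and 1 lower, where 3.04% and 2.56% of all genes were. Rsad2, the antiviral enzyme viperin, stood at 60.05, 75.4, 866 and 1386 CPM (ratio 1.602, 1.59 to 1.61). Isg15, a ubiquitin-like protein, stood at 32.2, 49.2, 1854 and 2636 CPM. Cmpk2, a mitochondrial nucleotide kinase that is a neighbour of Rsad2 in the genome, had 268 and 395 CPM after LPS. Oasl1 and Oasl2, related proteins of the oligoadenylate synthetase family, went opposite ways: 210 and 323 CPM against 315 and 233 CPM after LPS. Oasl1 lies 0.29 Mb and Oasl2 0.26 Mb from Trpv4. The interferon-inducible GTPases, 10 genes such as Gbp5 (0.27) and Igtp (0.26), were above 0 in 9 cases with none called. Untreated, 13 of 29 antiviral genes and 3 of 5 GTPases were called higher, so the lean to that label was also present without LPS, when 3.41% of 6156 genes were.

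The upstream bases of 2 of these genes are shown because they hold the interferon-stimulated response element, searched on both strands, in the 250 bases before the RefSeq start (GRCm38.p6). It was found in 4.16% of the 4209 compared genes with an entry, in 8.06% of those called higher, and in 15 of 32 antiviral genes (46.9%). Capitals mark it, read on the other strand, and in Rsad2 also an AP-1 match TGANTCA at 87 to 81 bases before the start. The printed bases are the last 120 before the start, on the gene's strand (Rsad2 at chr12:26456453-26456572, minus, and Ifit1bl1 at chr19:34601969-34602088, minus).
Rsad2: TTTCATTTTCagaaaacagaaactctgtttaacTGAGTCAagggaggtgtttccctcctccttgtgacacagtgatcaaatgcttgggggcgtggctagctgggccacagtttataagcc
Ifit1bl1: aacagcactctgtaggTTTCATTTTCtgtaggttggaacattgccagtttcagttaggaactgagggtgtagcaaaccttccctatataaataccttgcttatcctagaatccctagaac
Both carry the letters TTTCATTTTC, at 120 to 111 bases before the start in Rsad2 and 104 to 95 in Ifit1bl1. Ifit1bl1 stood at 114 and 177 CPM after LPS (ratio 1.54, 1.51 to 1.58). Oasl1, looked up with these genes, had no match to the element in its last 120 bases. A match is a description of the letters and no evidence of a bound factor. The antiviral list was drawn up from genes known to be interferon-stimulated, so the letters and the list are not independent. Some of its members are also among the genes called higher.

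Of 6 genes for nitric oxide, itaconate and arginine, 3 were called higher and 1 lower. Acod1, which makes itaconate, stood at 1236 and 1652 CPM after LPS, and Gch1, which makes the cofactor that nitric oxide synthase needs, at 105 and 137 CPM. Nos2, that synthase, stood at 9.42 and 25.3 CPM, above 0 on the log2 scale in all 8 clusters, though only in 2 did it pass the level filter. Slc7a2, an importer of its substrate arginine, was lower (20.2 and 13.2 CPM). Of 23 superoxide and antioxidant genes, 2 were higher, the oxidase subunit Ncf4 and the peroxidase Gpx1 (both 0.39), and glutathione reductase Gsr was lower (-0.42). Over all genes 3.04% were higher and 2.56% lower. Of 9 prostaglandin and leukotriene genes, 5 were above 0 and 4 below (median 0.09). Among them 2 were called higher and 1, a receptor gene, lower. Ptges, the terminal prostaglandin E synthase, stood at 159 and 231 CPM. Ptgs2, the inducible cyclooxygenase before it, stood at 7.41 and 19.7 CPM (ratio 2.66, 2.47 to 2.86), just under the level filter.

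Some plasminogen and matrix genes were far apart, but Serpinb2, Mmp12 and Mmp13 had under 20 CPM in wild type and entered through the library labelled Trpv4-null alone. Of 13 plasminogen and coagulation genes in the table, 2 were compared. The matrix protease list was split, with 4 of 10 called higher, 1 lower and a median of 0.03. Mmp13, a collagenase, stood at 7.09, 19.8, 15.997 and 47.6 CPM, so it was also higher untreated. Mmp12, the macrophage elastase, stood at 42.8, 53.8, 13.8 and 33.0 CPM. Both LPS libraries had less of it than the untreated one of their label, and the ratio of the labels was 2.39 (2.26 to 2.52) after LPS. Serpinb2, an inhibitor of urokinase, stood at 0.0457, 0.0851, 16.9 and 58.0 CPM (log2 ratio 1.72). The collagenase Mmp8, under the level filter, had 4.19 and 15.8 CPM after LPS. Timp1, an inhibitor of these proteases, was lower (131 and 94.9 CPM) and its relative Timp2 higher (112 and 150 CPM). Of 7 matrix proteins, 4 were higher, among them Col18a1 (25.3 and 47.7 CPM), the galectin Lgals3 (1665 and 2740 CPM) and osteopontin, Spp1 (382 and 543 CPM).

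These protease transcripts came from few cells. The 1% of wild-type cells with the most Serpinb2 UMIs held 67.2% of them, and 44.0% in the library labelled Trpv4-null. For Mmp12 the shares were 69.1% and 58.5%, for Mmp13 40.7% and 34.4%. Without those cells, a calculation added after seeing the data, the log2 ratios were 2.35 for Serpinb2, 1.48 for Mmp12 and 1.62 for Mmp13. By comparison the same 1% held 15.01% and 12.5% of Ccl2 UMIs, and 5.78% and 4.68% of those of Gpnmb.

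The last 120 bases before the RefSeq starts of Serpinb2 (chr1:107511303-107511422, plus) and Mmp13 (chr9:7272394-7272513, plus) are shown since these genes are described above and each holds an AP-1 match TGANTCA, in capitals, the letters bound by FOS and JUN proteins.
Serpinb2: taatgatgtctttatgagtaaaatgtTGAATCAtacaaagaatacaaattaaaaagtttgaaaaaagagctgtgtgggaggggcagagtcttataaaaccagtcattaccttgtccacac
Mmp13: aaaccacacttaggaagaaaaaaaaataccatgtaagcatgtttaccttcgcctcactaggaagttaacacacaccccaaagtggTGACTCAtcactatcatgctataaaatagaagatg
The match lies 94 to 88 bases before the start in Serpinb2 and 35 to 29 in Mmp13. Over 250 bases it was found in 5.58% of compared genes with an entry and in 15 of the 124 called higher (12.1%). An NF-kB consensus was found in 5.80% and 12.1%, and in 2.65% of the 113 lower. Mmp12 had no AP-1 match in its last 120 bases, and Nos2, Ly6a and Ccl4 are named only.

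Immediate-early genes, the first to answer a stimulus, were listed together with phosphatase and mRNA decay genes, and this list was mixed. Of 18 compared, 10 were above 0 and 8 below. Among them 5 were called higher and none lower, where 3.04% and 2.56% of all genes were. The median was 0.20, but without the level filter it was -0.02. Of 11 transcription factor genes 8 were above 0 (median 0.25), and of 5 mRNA decay genes 4 were below 0 (median -0.23). Fos, an AP-1 subunit, stood at 467, 185, 86.1 and 134 CPM. Its order between the labels was thus opposite with and without LPS, as it was for Klf4 (64.0, 35.3, 14.1 and 21.7 CPM) and the phosphatase Dusp1 (326, 111, 119 and 158 CPM). Untreated, 15 of 22 genes of this list were called lower under the Trpv4-null label, where 3.01% of all genes were. Rgs1, which shortens signals of chemokine receptors, stood at 119, 54.4, 41.4 and 76.4 CPM and followed the same pattern. The G protein-coupled receptor Gpr141 did not: it stood at 18.1, 50.0, 27.0 and 44.7 CPM, higher in both states.

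Lipid and lysosome genes gave mixed lists. Of 19 lipid genes, 6 were called higher and 1 lower (median 0.14). Lpl, the lipase that frees fatty acids from lipoproteins, stood at 573, 375, 766 and 1257 CPM. Fabp4, a carrier of these fatty acids, had 60.6, 43.4, 71.7 and 109 CPM, and their membrane transporter Cd36 282, 208, 205 and 268 CPM. So Lpl, Fabp4 and Cd36 were each lower under the Trpv4-null label untreated and higher after LPS, as was Lipa, the acid lipase of the lysosome. The cholesterol exporters Abca1 (-0.27) and Abcg1 (-0.05) were not called. A list of lysosomal genes together with 3 transcription factor genes had 35 compared. Of these, 4 were higher, and 1 of the factor genes was lower, where 3.04% and 2.56% of all genes were. On the higher side Gpnmb stood at 1884, 2849, 883 and 1721 CPM, and cathepsin L, Ctsl, at 1600, 2979, 1534 and 2561 CPM. Other cathepsins did not follow Ctsl, with Ctsb at 0.08, Ctss at 0.02 and Ctsh at -0.20.

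Surface receptors were lower in several cases. The list of inhibitory immunoreceptors had 16 receptor and 3 phosphatase genes compared. Of these 19, 5 were called lower, all receptor genes, and none higher, where 2.56% and 3.04% of all genes were. However, the median of -0.07 turned to 0.01 with median-of-ratios factors, and 3 of the 19 entered through the wild type alone. Cd33, a sialic acid receptor of the Siglec family, stood at 53.6, 48.7, 46.7 and 21.7 CPM, so the labels differed only slightly untreated. Its relative Siglece stood at 1.90, 1.49, 68.8 and 47.3 CPM (ratio 0.688, 0.665 to 0.711). The paired receptor genes Pilra (126 and 96.5 CPM) and Pilrb1 (23.2 and 15.97 CPM) were both lower. Of 10 C-type lectin genes and 5 genes of their signalling, Clec4n, the fungal receptor dectin-2, was the one apart, at 139, 95.9, 74.1 and 41.8 CPM. Its close relatives Clec4d (0.11) and Clec4e (0.20) were not lower. Of 14 scavenger and clearance receptors, 2 were called higher and 1 lower, with a median of -0.04 (0.04 with median-of-ratios factors). The lower one was Marco, a scavenger receptor of bacteria, which stood at 2.24, 0.0851, 211 and 95.6 CPM. Msr1 (0.15) and Mrc1 (-0.31) were not called. Marco UMIs were concentrated in few cells, as the top 1% held 31.2% of them in wild type and 55.9% in the library labelled Trpv4-null.

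Glycolysis was the clearest list on the lower side. Of 18 genes compared, 8 were called lower and 2 higher, where 2.56% and 3.04% of all genes were. The list had a median log2 ratio of -0.30 and cluster medians of -0.40 to -0.12. Hk2, the inducible hexokinase, stood at 16.1, 15.2, 39.5 and 27.0 CPM. Ldha, which makes lactate, stood at 208, 198, 490 and 366 CPM, and Slc16a3, which exports it, at 19.1, 19.7, 59.0 and 40.3 CPM. The labels were close untreated and apart after LPS in each of these, with Hk2 and Slc16a3 under the level filter untreated. Pfkl (42.5 and 28.3 CPM), Pfkfb3 (83.0 and 58.2 CPM), Tpi1 (262 and 196 CPM), Pgam1 (410 and 321 CPM) and Eno1 (85.6 and 67.9 CPM) were also lower after LPS. Gapdh (-0.04), Pkm (-0.06) and Hk1 (-0.09) were not called. The members on the higher side were Hk3, another hexokinase, and Slc2a6, a sugar transporter of lysosomes (64.6 and 107 CPM). Untreated, none of 14 glycolysis genes compared was called higher or lower (median 0.06). The 20 citrate cycle genes had a median of -0.07 (0.01 with median-of-ratios factors) and none was called higher or lower.

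Transcripts of Hif1a and of some targets of HIF-1 were lower. Hif1a, the oxygen-regulated subunit, stood at 109, 109, 177 and 122 CPM, so it was level between the labels untreated and lower under the Trpv4-null label after LPS (ratio 0.690, 0.676 to 0.705). Of 17 hypoxia response genes, 6 were called lower and 1 higher (median -0.21), where 2.56% and 3.04% of all genes were. Of the 13 targets among them, 4 were lower, 1 was higher and 8 were not called. The gene of the other HIF-1 subunit, Arnt, was not called (-0.10). Egln1, a hydroxylase that marks HIF-1 for decay, had 36.005 and 25.3 CPM. Bnip3, which marks mitochondria for removal, stood at 31.3, 32.3, 40.4 and 24.5 CPM, and Fam162a, another HIF-1 target, at 35.4, 29.4, 60.2 and 33.5 CPM. The exception was the lipid droplet coat gene Plin2, at 289 and 379 CPM. All 6 lower genes had log2 ratios below 0 in each of the 8 clusters, and Bnip3 and Fam162a were called lower in each.

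The upstream bases of Fam162a (chr16:36071562-36071681, minus), Bnip3 (chr7:138909507-138909626, minus) and Slc16a3 (chr11:120948947-120949066, plus) are shown with the core of the hypoxia response element, ACGTG on either strand, in capitals.
Fam162a: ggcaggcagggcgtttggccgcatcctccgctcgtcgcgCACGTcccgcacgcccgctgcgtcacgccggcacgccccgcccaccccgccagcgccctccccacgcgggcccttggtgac
Bnip3: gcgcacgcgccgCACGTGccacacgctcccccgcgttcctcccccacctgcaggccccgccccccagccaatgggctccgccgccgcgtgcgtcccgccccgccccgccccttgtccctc
Slc16a3: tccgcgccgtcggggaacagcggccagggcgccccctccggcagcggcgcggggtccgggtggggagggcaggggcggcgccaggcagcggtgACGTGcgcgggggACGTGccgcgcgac
The matches lie 81 to 77 bases before the start in Fam162a, overlap at 108 to 103 in Bnip3, and stand at 27 to 23 and 14 to 10 in Slc16a3. Pfkl, looked up by the same rule, had no match in its last 120 bases and is not printed. Over 250 bases, 27.0% of compared genes with an entry held the core, against 10 of 18 glycolysis genes (55.6%), 10 of 15 hypoxia response genes (66.7%) and 30.1% of all genes called lower. The lists were drawn up from textbook knowledge of HIF-1 targets, so the letters and the list are not independent.

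**Figure D2:**
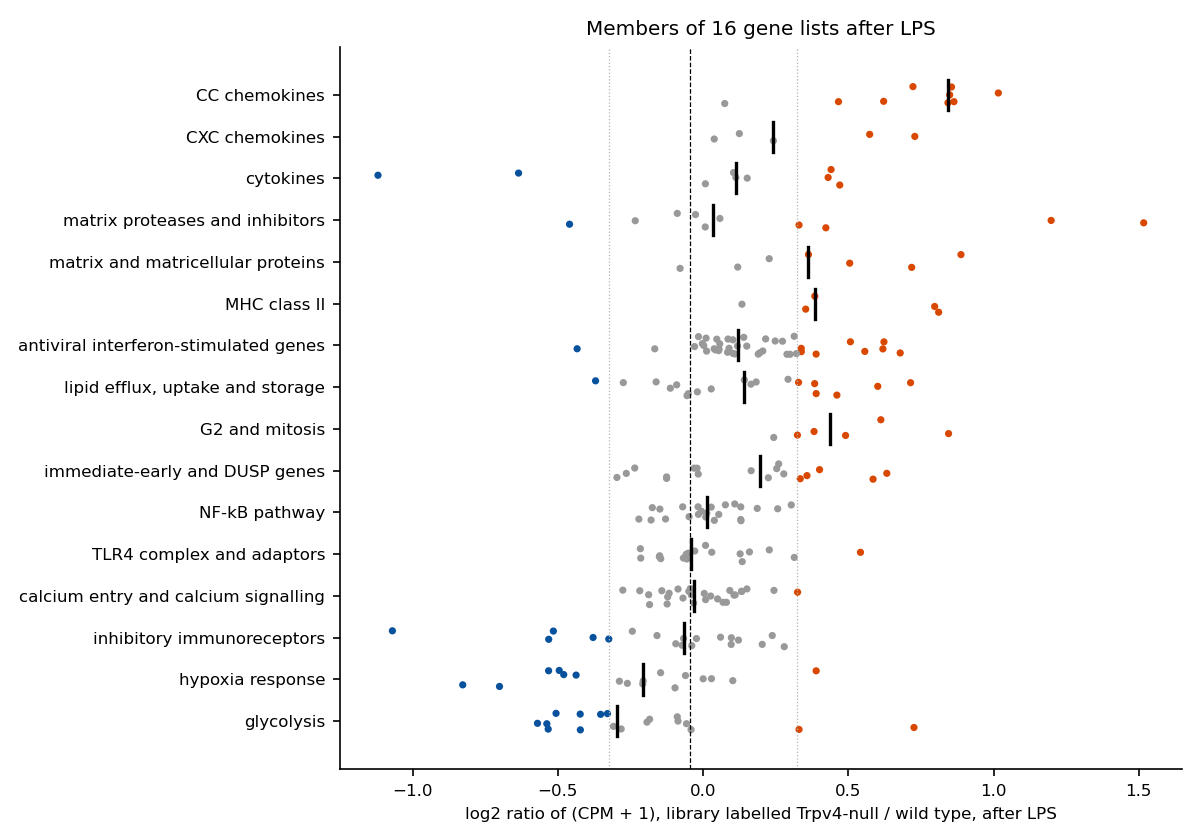
Log2 ratios after LPS (library labelled Trpv4-null over wild type, CPM + 1) of the compared members of 16 gene lists. Each point is a gene, orange where called higher and blue where called lower. Short bars are list medians, the dashed line the median of all genes (-0.04) and the dotted lines the size that is called. CC chemokines lie to the right (median 0.84), glycolysis to the left (-0.30), and the NF-kB list lies about 0.

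MHC class II genes were higher over all cells, and closer together with clusters weighted equally. Of 5 compared, 4 were called higher (median 0.38). Cd74, the class II invariant chain, stood at 234, 244, 96.5 and 168 CPM, and the alpha chain H2-Aa at 56.7, 50.7, 17.3 and 31.1 CPM. With clusters weighted equally the log2 ratios were 0.27 for Cd74, 0.24 for H2-Aa and 0.14 for H2-Ab1, all under the size that is called. The cluster named Cd74+ held 3.53% of cells under the Trpv4-null label and 2.33% of wild-type cells after LPS. Within the cluster named Cd74+, Cd74 stood at 1805 and 1998 CPM (log2 ratio 0.15), and its ratio was larger in clusters with little of it, such as 36.8 and 82.0 CPM in the cluster named Il1b+_Cxcl2+. None of 23 class I and peptide loading genes was called higher or lower (median 0.08). Costimulatory genes were higher in 3 of 7 cases: Cd40 (53.3 and 82.5 CPM), the checkpoint ligand Cd274 (246 and 332 CPM) and Slamf7 (184 and 268 CPM).

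Cell division genes differed by phase. Of 6 G2 and mitosis genes compared, 5 were called higher (median 0.44), and 3 of the 6 entered through the library labelled Trpv4-null alone. With clusters weighted equally that median was 0.10. Inside the cluster named Proliferating it was 0.15 over 26 G2 and mitosis genes. Untreated, all 22 G2 and mitosis genes compared were called higher under the Trpv4-null label (median 0.78). The cluster named Proliferating held 9.81% of cells under the Trpv4-null label and 7.26% of wild-type cells after LPS. Untreated, these shares were 9.88% and 5.99%. Of 9 S phase genes, 1 was called higher, with a median of 0.08 that was -0.10 with clusters weighted equally. It was -0.22 over 25 S phase genes inside the cluster named Proliferating. Inside the cluster named Proliferating, Top2a, which untangles chromosomes, stood at 325 and 327 CPM and the kinase gene Cdk1 at 152 and 162 CPM, while Ube2c, which helps cells leave mitosis, stood at 170 and 228 CPM. The 60 cytosolic ribosomal protein genes had a median of -0.03 (0.05 with median-of-ratios factors), with none called.

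The ratios were then taken within each of the 8 clusters that had at least 100 cells in both libraries, counting a gene where its higher library had at least 20 CPM and 100 UMIs in the cluster. Counts of called genes varied between clusters. They were 290 higher (6.01%) and 511 lower (10.6%) of 4826 in the Cd74+ cluster, which had 232 cells under the Trpv4-null label and 193 of wild type. The cluster named Macrophage, with 1751 and 2398 cells, had 133 (2.53%) and 134 (2.55%) of 5257. High_Apoe had 3.31% higher and 3.53% lower, High_Lpl_Fabp4+ 3.41% and 5.66%, and Ifit1bl1+_Cmpk2+ 3.2% and 8.68%. Il1b+_Cxcl2+ had 3.37% and 5.09%, Proliferating 4.56% and 4.2%, and Tmem176+ 3.79% and 4.36%. With median-of-ratios factors the order of the counts turned in 7 of the 8 clusters, Proliferating being the exception. They were then 543 higher and 277 lower in the Cd74+ cluster and 401 and 136 in Ifit1bl1+_Cmpk2+. Of 4462 genes compared in all 8 clusters, 39 (0.874%) were called higher in each of them and 15 (0.336%) lower in each.

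Of the 39, 38 have a gene name. They include 6 chemokine genes (Ccl2, Ccl3, Ccl4, Ccl7, Ccl9 and Ccl12), the receptor gene Ccrl2, the antiviral genes Rsad2, Cmpk2, Isg15 and Oasl1, and Gpnmb, Ctsl, Lgals3, Lpl and Fabp4. Others were Slc15a3 and Slc15a4, lysosomal transporters of bacterial peptides (311 and 420 CPM, and 38.3 and 54.3 CPM), the transcription factor gene Batf2 (31.8 and 46.4 CPM), Mxd1, a MYC antagonist (38.0 and 64.9 CPM), and Lars2, a mitochondrial tRNA ligase (95.1 and 141 CPM). The folate receptor gene Folr2 stood at 37.4, 59.5, 82.1 and 139 CPM. The log2 ratio of Slc15a3 ranged from 0.39 to 0.48 over the clusters.

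Lower in each cluster were 15, among them Il1b, Il1a, Ide, Cd33, Clec4n, P2rx7, Gltp, Bnip3, Fam162a, Rnf34, Marco, Bcl2a1a, Hspe1 and Lsm6. Ide, the insulin-degrading enzyme, stood at 31.1, 18.7, 37.9 and 21.7 CPM and had log2 ratios of -1.03 to -0.63 over the clusters, a lower level with and without LPS alike. Hspe1, a mitochondrial chaperonin, was closer to level untreated, with 207, 181, 287 and 202 CPM. Bcl2a1a, a survival gene, had 40.7 and 29.7 CPM after LPS, and near-identical copies of it exist, so its counts may be shared with Bcl2a1b (247 and 193 CPM) and Bcl2a1d.

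**Figure D3:**
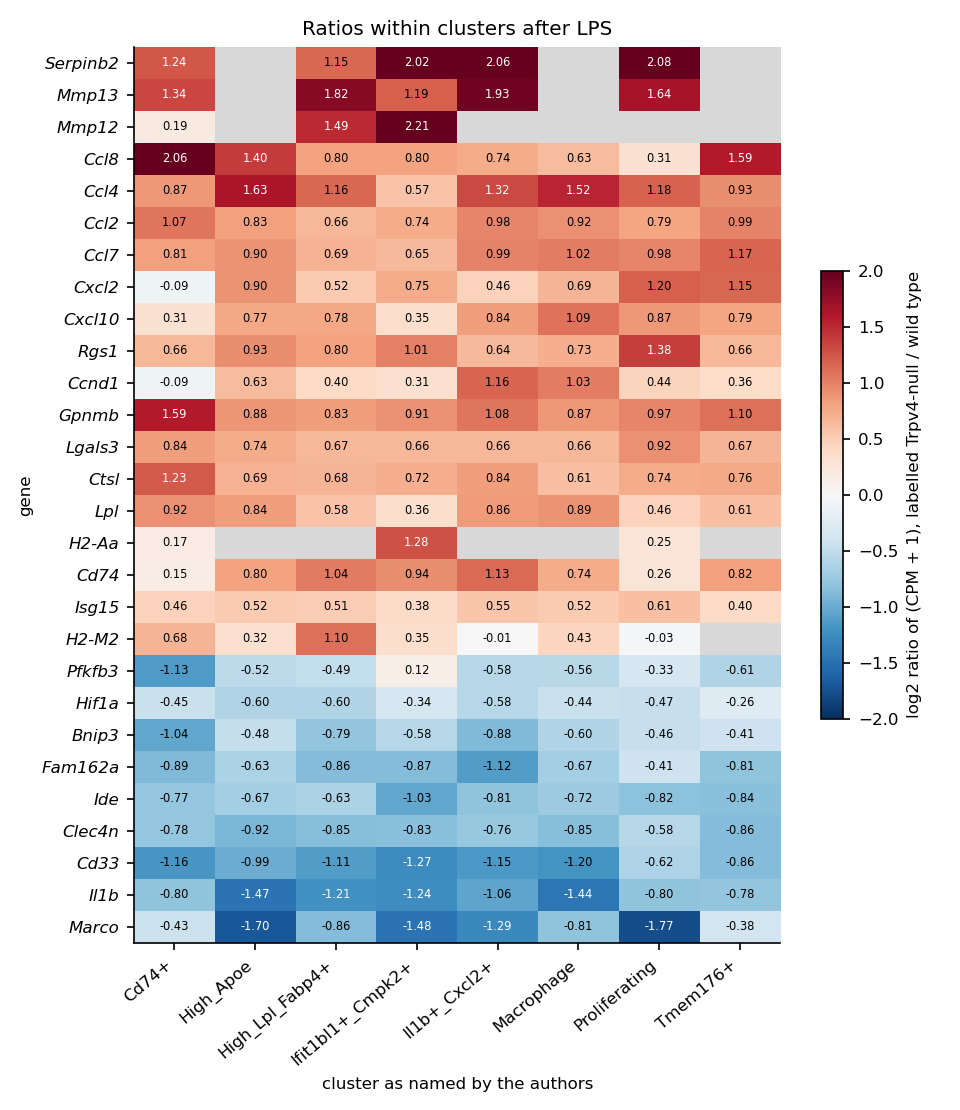
Log2 ratio (library labelled Trpv4-null over wild type, CPM + 1) of 28 genes within the 8 clusters after LPS. Colour runs from -2 (blue) to 2 (red), each cell prints its value, and grey marks a gene under the level filter there. Ide lies between -1.03 and -0.63 in the 8 clusters, while Ccl8 ranges from 0.31 to 2.06 and Marco from -1.77 to -0.38.

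Some ratios depended strongly on the cluster. Ccl8, a monocyte chemokine, stood at 21.1 and 91.2 CPM in the Cd74+ cluster (log2 ratio 2.06) but at 83.6 and 104 CPM in Proliferating (0.31). Ccl4, which draws monocytes and T cells, was furthest apart in the cluster named High_Apoe, at 145 and 451 CPM (ratio 3.12, 2.96 to 3.29), and closest where it was highest, at 1913 and 2836 CPM in the cluster named Ifit1bl1+_Cmpk2+ (1.48, 1.46 to 1.51). Cxcl2 was level in the Cd74+ cluster (468 and 440 CPM) and higher in the other 7, up to 1.198 in Proliferating. Pfkfb3, whose product drives glycolysis, was lower in 7 clusters, down to -1.13 in the Cd74+ cluster, and at 0.12 in Ifit1bl1+_Cmpk2+. The cyclin gene Ccnd1 ranged from -0.09 in the Cd74+ cluster to 1.16 in Il1b+_Cxcl2+.

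The protease genes had their own distribution. Mmp12 was most abundant in the Cd74+ cluster and close to level there, 159 and 181 CPM, but stood at 7.97 and 40.5 CPM in Ifit1bl1+_Cmpk2+ (ratio 5.08, 4.15 to 6.25). Mmp13 was most abundant in Ifit1bl1+_Cmpk2+, 66.4 and 153 CPM, and furthest apart in Il1b+_Cxcl2+, 10.4 and 42.8 CPM. Serpinb2 stood at 28.2 and 120 CPM in Il1b+_Cxcl2+ (ratio 4.27, 3.97 to 4.59). In the cluster named Tmem176+ its levels of 8.32 and 10.9 CPM could not be told apart by counting error (1.31, 0.92 to 1.86). Cd5l, an apoptosis inhibitor secreted by macrophages, stood at 5.35 and 28.0 CPM in High_Apoe, its largest log2 ratio (2.19).

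Neutrophil marker genes gave the most negative values of 2 clusters. S100a9 stood at 77.7 and 0 CPM in the Cd74+ cluster and at 109 and 0.0814 CPM in Proliferating, and S100a8 at 87.3 and 11.6 CPM in Proliferating. All S100a9 UMIs of either LPS library lay in the 1% of its cells with the most of them. Without those cells the log2 ratio of S100a8 was -0.14 in place of -0.54. The dendritic cell chemokine Ccl22 stood at 124 and 30.8 CPM in the Cd74+ cluster and at 1.46 CPM or less in each of the other 7 clusters. Whether other cell types inside these clusters account for such values was not tested.

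The order of the genotype labels after LPS was set beside that of the untreated pair, which shares no library with it. Of 4921 genes compared in both states, 111 were called higher after LPS. Of those, 36 were also higher untreated, 19 were lower and 56 were not called, where 130 of the 4921 (2.64%) were higher untreated and 143 (2.91%) lower. Of 111 lower after LPS, 15 were also lower untreated, 3 were higher and 93 were not called. Apart on the same side in both states were Gpnmb, Ctsl, Folr2, Gpr141 and Ly6a on the higher side, and Il1b, Ide, Gltp, P2rx7 and Clec4n on the lower. Ly6a, a surface protein induced by interferon, stood at 4.92, 22.1, 132 and 270.2 CPM. Not called untreated and called lower after LPS were Hif1a, Ldha, Tpi1, Pgam1, Eno1 and Cd33. Opposite were Fos, Klf4, Rgs1, Lpl, Fabp4, Ccl3 and Ccl4. Whether any ratio differs between the states beyond the spread of cultures was not tested.

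**Figure D4:**
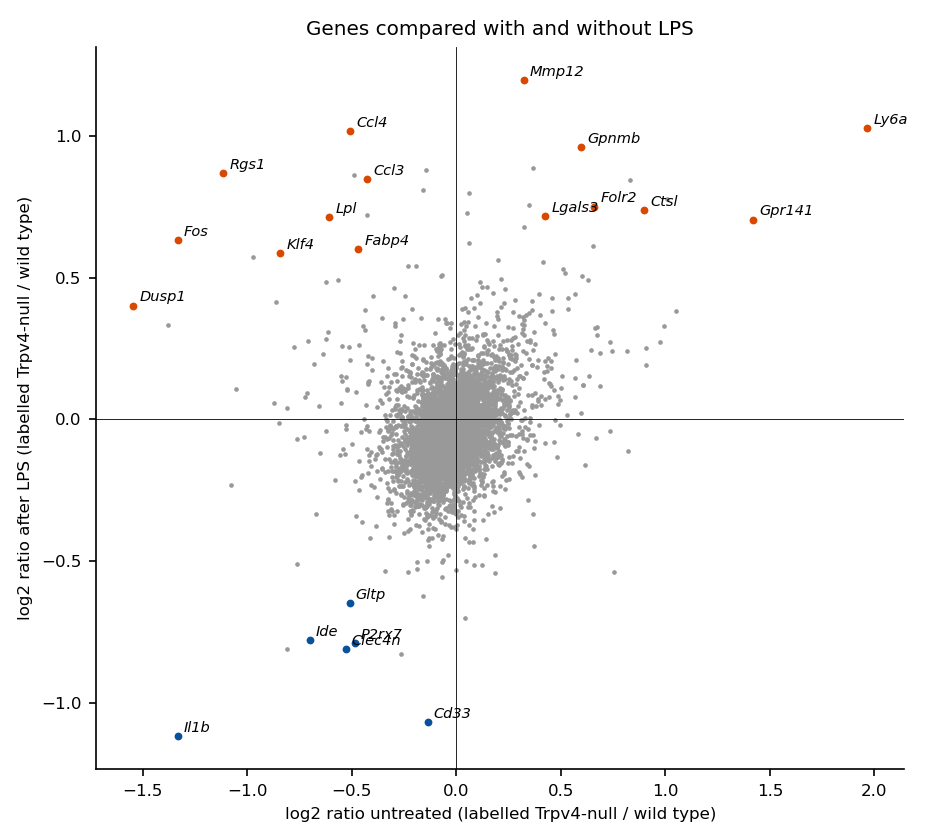
Log2 ratio (library labelled Trpv4-null over wild type, CPM + 1) untreated on the horizontal and after LPS on the vertical axis, for 4921 genes compared in both states. Named genes are orange where higher and blue where lower after LPS. Most points lie near the centre, Ide and Il1b lie lower left, Gpr141 and Ly6a upper right, and Fos, Rgs1 and Dusp1 upper left.

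Several genes apart in both states lie near Trpv4 on chromosome 5, a pattern described by windows after its values had been seen. After LPS, 8 of 43 compared genes within 5 Mb of Trpv4 (18.6%) were called in either direction, where 5.6% of all genes were, 6 of 56 (10.7%) at 5 to 10 Mb and 7 of 39 (17.9%) at 10 to 20 Mb. Further along the chromosome it was 14 of 223 (6.28%), and on all other chromosomes 257 of 4831 (5.32%). Shares on single chromosomes ranged widely, however, and were 10.2% on chromosome 13 and 9.41% on chromosome 19. Untreated, 5 of 45 (11.1%) within 5 Mb were called, against 6.37% on other chromosomes and 6.42% of all genes. At 5 to 10 Mb it was 4 of 62 (6.45%) and at 10 to 20 Mb 3 of 40 (7.5%), both near that share, while chromosome 13 had 10.96%.

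Of the neighbours compared in both states, 7 were apart in both, and 6 of them follow. Gltp, a glycolipid transfer protein whose gene lies 0.04 Mb from Trpv4, at 114669398 to 114690984, stood at 312, 219, 123 and 78.1 CPM. The transcript 1500011B03Rik, 0.18 Mb away, stood at 17.9, 36.9, 13.2 and 23.3 CPM, and Coq5, of ubiquinone synthesis, at 20.9, 26.8, 19.1 and 25.05 CPM. P2rx7, 8.03 Mb away, stood at 79.8, 56.7, 35.1 and 19.8 CPM, and Nipsnap2 at 15.1 Mb stood at 31.5, 22.3, 22.3 and 17.4 CPM. They kept their side in both states, and Rasgef1b, 15.2 Mb away on the other side, did not (-0.57 untreated and 0.49 after LPS). Oasl1, not counted among the 7, had log2 ratios of 0.62 after LPS and 1.39 untreated. Rnf34 and Oasl1 overlap other genes (Kdm2b and Gm13822), and whether counting used the strand is not stated, so their counts may be shared. The groups differ in genotype label and in library at once, and these cannot be told apart.

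**Figure D5:**
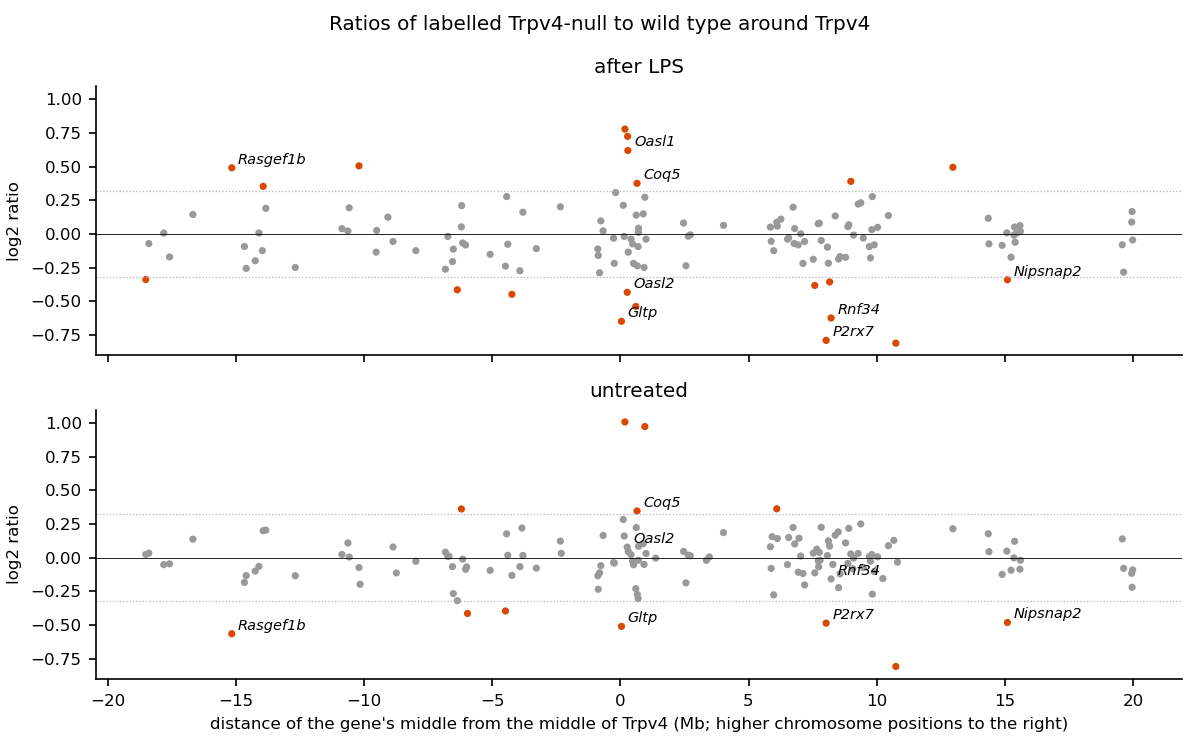
Log2 ratio (library labelled Trpv4-null over wild type) of the compared genes within 20 Mb of Trpv4, by distance in Mb, after LPS (upper panel) and untreated (lower panel). Orange marks genes called higher or lower and dotted lines that size. Gltp, P2rx7 and Nipsnap2 lie below 0 in both panels.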

How the data were processed

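The deposited table holds whole-number UMI counts for 14432 genes in 27366 cells, not normalized, and the deposited annotation gives, per the file headers, each cell's UMI count, mitochondrial fraction, library and cluster name. The submitters' processing notes name mm10, R 4.2, Seurat 4 and Cell Ranger 3.1.0 with no role or order. How the authors filtered cells is not stated there.

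Every deposited cell was used, and UMIs were summed for each library, and for each cluster within it, then divided by the total to give CPM. Ratios used a pseudocount of 1 CPM. Sizes of 5 to 4 and 2-fold were used in place of a test, since each group is 1 library. Intervals are exact (conditional for ratios, Poisson for CPM, 95%). Named genes were the 15 highest and 15 lowest over all cells, up to 6 of each of 49 gene lists with members needed for a role, the 5 highest and lowest of each cluster, the 10 with the widest range over clusters, those called alike in every cluster, those opposite by 1.5-fold between the states, and Trpv4. Other genes, such as neighbours of Trpv4 and further members of a list, were chosen after their values were seen. A few genes that are part of the counts are not reported here by name. The members and lists were chosen with earlier results of these data known. Positions came from GENCODE M21 (GRCm38), and upstream bases from RefSeq.

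The steps were tested on simulated counts with Poisson counting error and no spread between mice, cultures or libraries. The shares that follow therefore do not measure false calls that such spread would give. Over all cells (5126 genes), 100% of genes set 1.5-fold apart were called, and 0% of unchanged genes. In the Cd74+ cluster (4882 genes) it was 99% and 3.56%. Software was edgeR 4.0.16 in R 4.3.3, which gave only the TMM factors, matplotlib 3.10.9, pandas 2.3.3, scipy 1.17.1, numpy 2.4.6 and Python 3.11.15.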

Additional observations from a re-analysis of the deposited data

Results flagged for a closer look

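For 8 genes the order of the genotype labels was opposite with and without LPS, by at least 1.5-fold on each side. The log2 ratios after LPS and untreated were 0.87 and -1.12 for Rgs1, 0.59 and -0.84 for Klf4, 0.63 and -1.33 for Fos, and 0.71 and -0.61 for Lpl. They were 0.86 and -0.92 for Ccl7 and 0.63 and -1.05 for Ccnd1, both below the level filter untreated. The neutrophil marker genes S100a9 (-1.43 and 0.70) and Ngp (-1.11 and 0.60) were below it after LPS, where Ngp had 168 UMIs in wild type and 0 in the library labelled Trpv4-null. None of these differences between the states was tested, since each state has 1 library per genotype label.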

How the results depend on the processing

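All 119 named genes called higher or lower kept their direction under the 10 alternatives that change ratios, and 107 to 119 kept the size. Direction was fixed in advance for the pseudocounts, which cannot turn it. The same holds for the scalings, whose shift of 0.08 or less is far under the size that is called. The other 2 alternatives change only which genes are compared, and 77 of the 119 were still compared at 50 CPM. The fewest genes kept the size with clusters weighted equally, which left Cd74, H2-Aa, H2-Ab1, Top2a, Cdk1 and Birc5 among those under it. Counts moved more. Over all cells, genes called higher were 267 with median-of-ratios factors, 246 with TMM factors, 378 without the CPM filter and 101 at 50 CPM. Those lower were 59, 65, 522 and 50, 178 (against 151 higher) with the total taken without Fth1, Ftl1 and Saa3, and 87 with a pseudocount of 5 CPM. Genes 2-fold apart were 17 higher and 13 lower without the filter, and 3 higher at 50 CPM. With median-of-ratios factors, genes higher and lower were 543 and 277 in Cd74+, 263 and 99 in High_Apoe, 391 and 123 in High_Lpl_Fabp4+, 401 and 136 in Ifit1bl1+_Cmpk2+, 344 and 103 in Il1b+_Cxcl2+, 212 and 76 in Macrophage, and 393 and 133 in Proliferating. With TMM factors they were 473 and 309 in Cd74+, 353 and 133 in High_Lpl_Fabp4+, 298 and 197 in Ifit1bl1+_Cmpk2+, and 308 and 116 in Il1b+_Cxcl2+. In Cd74+, 181 and 219 remained at 200 UMIs, where fewer genes are compared. In High_Apoe, 296 were lower with the total taken without Fth1, Ftl1 and Saa3, and 120 with a pseudocount of 5 CPM. Scaling shifts all ratios alike, and other causes were not tested. The G2 and mitosis and aryl hydrocarbon receptor lists had no value at 50 CPM. No paired analysis was possible because each group is 1 library. Depth limits the small clusters most, and counting intervals say nothing about the spread between mice.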
